A study of Medicago truncatula with 160 samples.

Results

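The 200 plant genes described here were those whose transcript level differed most among Medicago truncatula plants of the same host line that carried the same strain of Sinorhizobium meliloti. They were taken from the 12248 nuclear rows of the deposited table with a mean of 5 or more counts per 1000000 M. truncatula counts (CPM), out of 49615 nuclear rows and 56121 rows of both organisms in all. For each row, the standard deviation (SD) of log2(CPM + 1) was computed over the 4 plants of each host and strain, and the rows were ranked by the median of the 40 SDs. The spread between plants therefore chose the members and is given as a description, with no test. The grouping of the members, the order of the plants and the differences between strains and between hosts were not part of the rule. They are not independent of it, since the later tests of strains and of slopes within strains rest on the same spread between plants.

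The libraries were made from nodule RNA of greenhouse-grown plants of 2 host lines, A17 and DZA, which differ in genotype. Each line was inoculated with 20 single strains, namely 25B, 31, 89, 121, 141, 144B, 176A, 182, 199, 204, 206, 216, 230, 278, 282, 283, 335, 724B, 746B and 748B, with 4 plants for every host and strain, which gave 40 groups and 160 libraries. The labels give the same greenhouse substrate and sequencing lane for all plants and no other batch. DZA plants were harvested 6 weeks after planting, and a harvest age for A17 plants was not found in the labels or methods. Each library is 1 plant with its own plant number, so the 4 plants of a group are separate biological samples.

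Root nodules form when rhizobia are taken up into cells of the root, where the bacteria differentiate into nitrogen-fixing bacteroids. In Medicago, the infected cells make NCR peptides, a large family rich in cysteine and found in nodules alone, that drive this differentiation, leghaemoglobins that keep free oxygen low, and transporters that feed the bacteroids. A nodule holds a meristem, an infection zone, a fixation zone and, with age, a senescent zone, and RNA from all of them is mixed in a bulk library.

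The total counts per library ran from 28474905 to 75617864, and the M. truncatula counts from 2282942 to 58578353 (median 33249164). The S. meliloti share of a library's counts (the rhizobial share) ran from 3.68% to 96.3% with a median of 29.1%. The library with the fewest plant counts was that of plant 3110 (A17, strain 216), which was also the library with the highest rhizobial share. By their S. meliloti transcripts, strains 182 and 89 could not be told apart, nor could 282 and 283, and 21 libraries of these strains were closest to the other strain of their pair. Apart from these, 3 libraries resembled another strain more than the labelled strain, namely plant 3406 (DZA, labelled 182), plant 3514 (A17, labelled 89) and plant 3246 (A17, labelled 724B, whose correlations with its own and the best-matching strain were 0.67 and 0.68). Without these libraries and that of plant 3110, the rule returned 179 of the 200 members. Plants 3435 (A17, strain 25B) and 3373 (A17, strain 121) matched their labelled strains best, but with correlations of only 0.64 and 0.70. Their identity is thus less certain, and they were kept in all runs that left out mislabelled libraries. No pair of same-group libraries agreed within sampling noise (the lowest chi-square per degree of freedom over 240 pairs was 48.3). The nodule label fitted the measured NCR169, the gene of an NCR peptide needed for bacteroid differentiation, which was above 0 in all 160 libraries.

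The members' median SDs ran from 1.61 to 5.31 on the log2 scale with a median of 1.75, whereas the median over all 12248 rows was 0.79. The last members inside the list, Chr7g0247581, Chr6g0475621 and Chr3g0099811, had 1.61, and the first rows outside it, Chr1g0159611, Chr7g0229511 and Chr4g0007681, also had 1.61, so the list ends within a continuous distribution. Gene identifiers are given without their common prefix MtrunA17_, and the part before the letter g names the chromosome. The members' mean levels ran from 5.35 to 1467 CPM with a median of 43.9 CPM. Of the 200 members, 126 (63%) were above 0 in every library, and 19 (9.5%) were listed at 0 in 16 or more libraries, compared with 87.8% and 1.2% of all rows passing the floor.

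The choice held in part across hosts. The 200 rows with the largest spread in DZA had a median SD of 1.53 in A17, where the median of all rows was 0.73, and 133 of them (66.5%) were among the 1224 rows with the largest spread in A17. The 200 rows with the largest spread in A17 had a median SD of 1.63 in DZA, where the median of all rows was 0.83, and 173 of them (86.5%) were among the 1224 rows with the largest spread in DZA. The lists of the hosts shared 80 rows, 40% of each list.

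**Figure D1:**
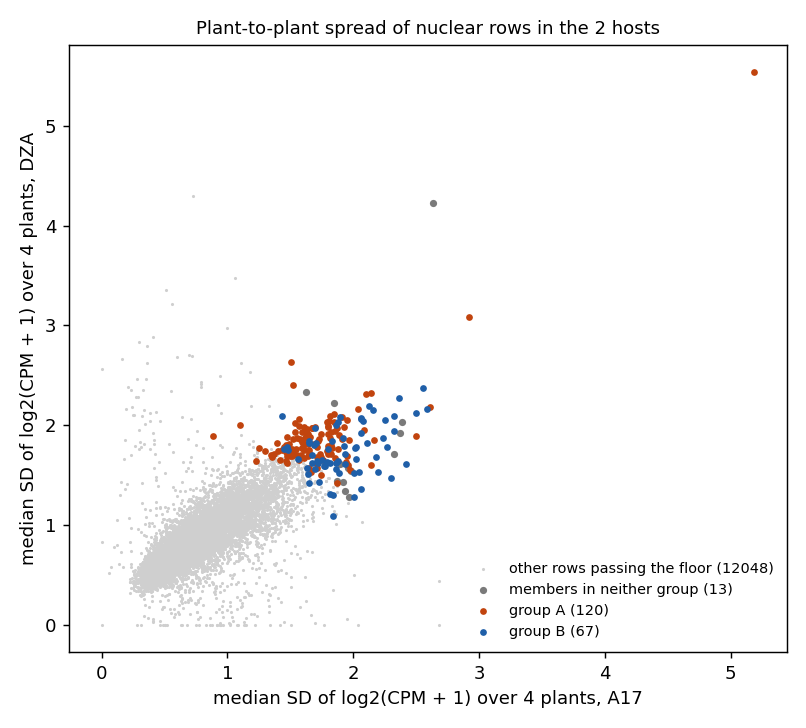
Median SD of log2(CPM + 1) over the 4 plants of a strain in A17 (horizontal axis) and in DZA (vertical axis), in log2 units, for each of the 12248 nuclear rows passing the floor. The members (colours) sit at the upper right by construction, and Chr0c01g0489011 stands alone with a median SD of 5.31 over both hosts.

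The scale of the values set part of this spread. The 10 most abundant plant rows held 18.5% to 83.3% of each library's M. truncatula counts, which lowers or raises the CPM of all other rows together. The median row departed from its group mean by between -1.88 and 1.19 log2 units, with a median SD of 0.69 within groups, and its departure had a correlation of -0.80 with that of the rhizobial share. Scaling by the trimmed mean of M-values (TMM), which aims to set most rows level between libraries, brought the median SD of the median row to 0.18 and the median over all rows to 0.42, while the members kept a median SD of 1.34. The levelling was not complete, as the median row still departed by between -1.54 and 0.53 log2 units. The rule on TMM-scaled values returned 123 of the 200 members, 48 of them from group A and 63 from group B below. Values below are given on both scales where the scale matters, and the tests used TMM unless another scaling is named.

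The members fell into 2 groups of plants' patterns. The departures of the members from their host and strain mean were clustered by their correlation over the 160 plants, and 187 of the 200 members joined either a group of 120 (group A) or a group of 67 (group B) at a mean correlation of 0.5 or more. The median correlation of pairs was 0.92 within group A and 0.87 within group B, and 0.84 for both on TMM-scaled values. Most other rows moved with group A before TMM as well: the median correlation of all rows passing the floor with the score of group A was 0.85 on CPM and 0.47 on TMM-scaled values, and with that of group B 0.50 and 0.18. The other 13 members formed a cluster of 4, a pair and 7 single rows. On all members, the first principal component took 63.3% of the variation between same-strain plants and the second 17.1%, and these were 46.8% and 24.6% on TMM-scaled values. The same clustering of TMM-scaled values gave groups of 117 and 65, which held 116 members of group A and 65 of group B. In DZA alone it placed 118 members of group A and 66 of group B in groups of their own, and in A17 alone 119 and 64. When the threshold was lowered to a correlation of 0.4, groups A and B merged.

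A plant's score for a group was the mean departure of the group's members from the plant's host and strain mean, in log2 units. The score of group A ran from -3.32 (A17, strain 25B, plant 3435) to 2.62 (A17, strain 282, plant 3438), and that of group B from -3.29 (DZA, strain 31, plant 3379) to 3.73 (the same plant 3438). The median range of the score over the 4 plants of a group was 3.86 log2 units for group A and 3.8 for group B on CPM, and 2.61 and 3.54 on TMM-scaled values. On CPM the widest range of group A was 5.58 (DZA, strain 748B; on TMM-scaled values 5.26 in A17, strain 216) and the narrowest 0.98 (A17, strain 206), and for group B the widest was 5.88 (DZA, strain 216) and the narrowest 1.30 (A17, strain 204). In A17 with strain 206, the 4 plants had scores of group A of -0.39, -0.23, 0.04 and 0.58, and scores of group B of -1.31, -0.04, -1.36 and 2.71. These plants were close in group A while the last stood high in group B. The scores of the groups had a correlation of 0.56 over the 160 plants, and 0.33 on TMM-scaled values, and the same plant ranked highest in both in 18 of 40 groups.

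**Figure D2:**
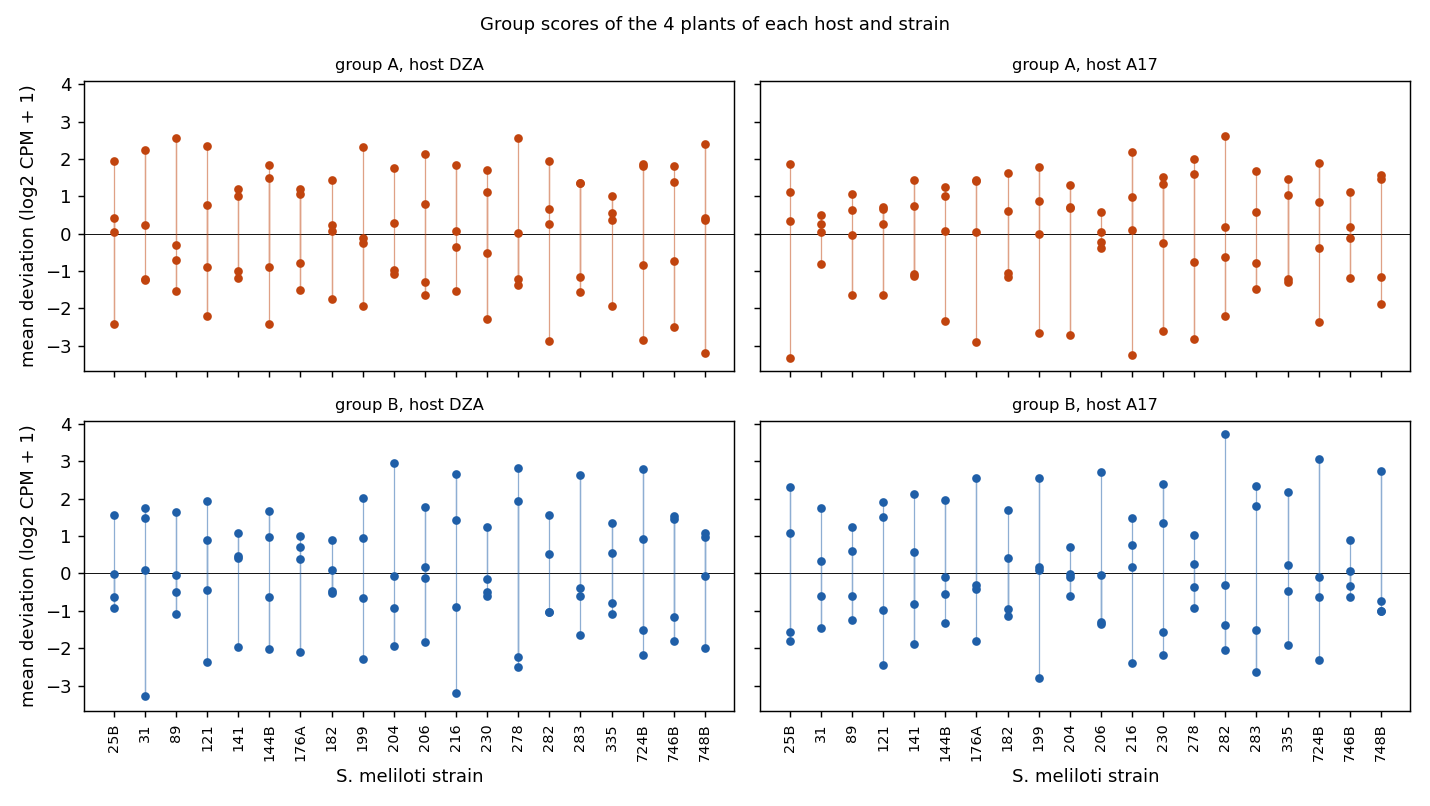
Scores of group A (top) and group B (bottom) in log2 units for the 4 plants of each strain (points, joined by a line) in DZA (left) and A17 (right), each a departure from the mean of its own host and strain. Every strain shows a spread between its plants, with a median range of 3.86 log2 units in group A and 3.8 in group B on this CPM scale (2.61 and 3.54 after TMM).

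Group A followed the rhizobial share. Over the 160 plants, the score of group A and the departure of the logit of the rhizobial share had a Pearson correlation of -0.86 and a Spearman correlation of -0.86, and of -0.88 and -0.87 on TMM-scaled values, given as a description because the libraries also share their composition. The correlation on TMM-scaled values was -0.86 in DZA and -0.90 in A17, and -0.87 without the 2 plants farthest from the median share. In 30 of 40 groups the plant with the highest score of group A had the lowest rhizobial share, and in 32 the plant with the lowest score had the highest share. The score also moved with the departure of the median row (0.94) and with the log2 of the plant counts (0.74), and the part of these in the pattern was not tested.

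Group B followed the rhizobial share more loosely. Its correlations with the logit share were -0.47 (Pearson) and -0.44 (Spearman), and -0.29 and -0.26 on TMM-scaled values. On that scale the Pearson value was -0.20 in DZA and -0.38 in A17, and -0.27 without the 2 farthest plants. The plant with the highest score of group B had the lowest share in 17 of 40 groups. The plants 3441 (A17, strain 724B) and 3488 (DZA, strain 204), among the highest in group B with scores of 3.06 and 2.96, had rhizobial shares of 7.56% and 5.15%, but plant 3297 (A17, strain 121), among the lowest on TMM-scaled values with -2.65, had a share of only 10.5%.

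**Figure D3:**
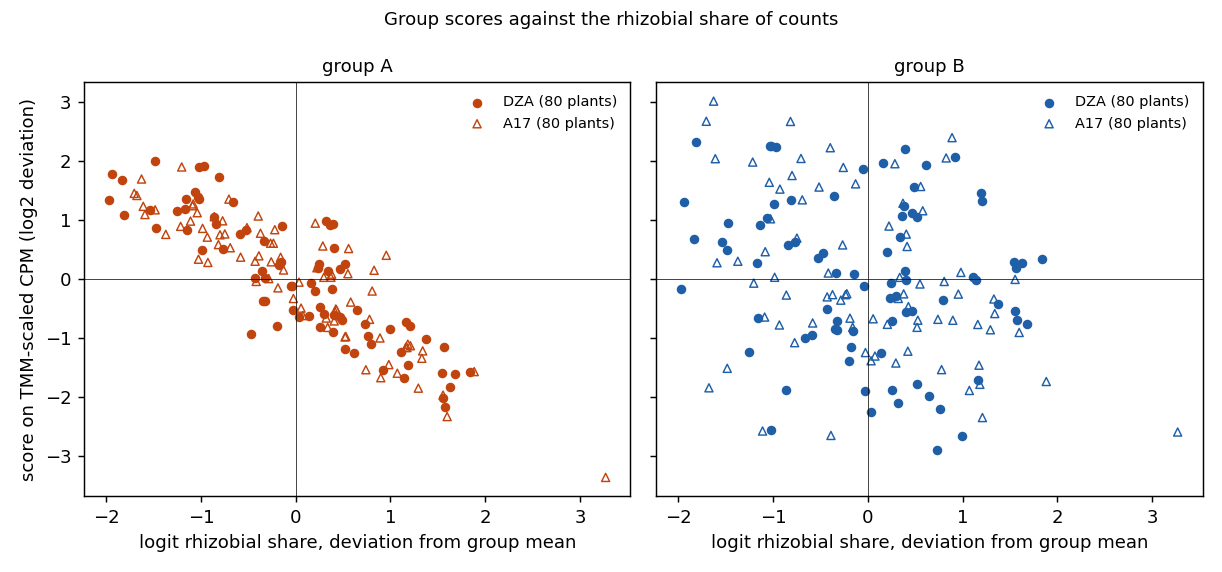
Scores of group A (left) and group B (right) on TMM-scaled CPM, in log2 units, against the logit of the rhizobial share of counts, both as departures from the mean of the plant's host and strain (filled circles DZA, open triangles A17, 80 plants each). The points of group A follow a line with a correlation of -0.88, and those of group B scatter with a correlation of -0.29.

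The slope of each plant gene on the logit rhizobial share was then tested within host and strain by edgeR's quasi-likelihood test over all 160 libraries, with p-values adjusted over 37672 rows (Benjamini-Hochberg). At an adjusted p under 0.05, 36.9% of all rows fell and 38.9% rose as the share rose, 75.8% in all. Among the 12248 rows passing the floor, 72.1% fell and 9.95% rose. The rule chose genes on the same variation between plants, part of which moved with the share, so steeper slopes were favoured and the members' counts and medians are a description. All 200 members were tested, and 170 of them fell, 6 rose and 24 did not pass. In group A all 120 members fell, with slopes from -3.30 to -0.54 and a median of -0.97 log2 units per unit of logit share, where the median was 0.01 over all rows and -0.21 over the rows passing the floor. In group B 50 of 67 members fell, with a median slope of -0.49 and a range from -1.01 to 0.19. Without TMM, with scaling by library size alone, the median slope of all rows moved to -0.38 and 23143 of 37672 rows fell. On that scaling 120 members of group A and 65 of group B fell. Group A fell in 116 to 120 members under every alternative run, while the count for group B depended on the setting. In DZA alone 19 of the 67 members of group B fell, where 9824 of 34224 rows did. Without replicate 3 the count was 23, where 11018 of 36680 rows fell. Without replicate 4 it was 27, where 10004 of 36637 rows fell. Without the mislabelled libraries and that of plant 3110, 120 members of group A and 40 of group B fell, where 12970 of 37569 rows did. In such bulk samples, fewer cells of a type and less RNA per cell cannot be told apart.

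**Figure D4:**
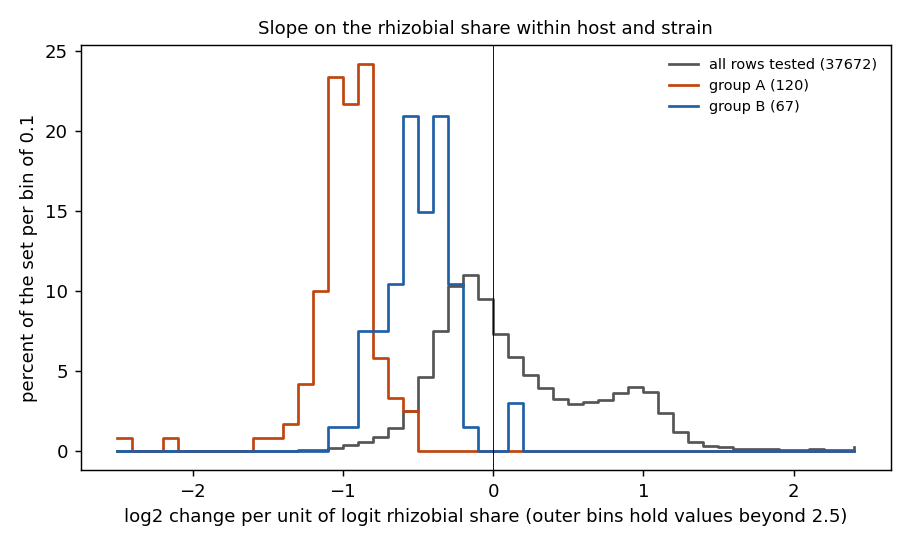
Distribution of the slope on the logit rhizobial share (log2 units per unit of logit) for all 37672 rows tested (grey), the 120 members of group A and the 67 of group B, as a percent of each set in bins of 0.1. Group A lies wholly below 0 around its median of -0.97, and group B around -0.49.

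The slope was compared between hosts by an interaction term. The difference passed the test for 6.33% of all rows (3.73% with a higher and 2.6% with a lower slope in DZA) and for 4 of the 200 members (2%), 2 in each direction, while 29 members, 20 of them in group B, had an unadjusted p under 0.05, where 7526 of 37672 rows did. The 4 were Chr4g0016051 (slope lower in DZA by 1.12), Chr6g0475531 of group A (lower by 0.43), Chr2g0289341 of group A (higher in DZA by 0.49) and Chr5g0406871 of group B (higher by 1.10), singled out because so few passed.

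NCR169 (Chr7g0229931, group A) is the 1 member in the study's list of 84 known symbiosis genes. Of that list 62 genes passed the floor, and 1.63% of all rows passing the floor were members, so nothing is read from this count. Its correlation with the score of group A was 0.98, and 0.96 on TMM-scaled values. In DZA its level ran from 2.91 to 423 CPM with a median of 75.9 CPM, and in A17 from 2.96 to 411 CPM with a median of 129 CPM. In A17 with strain 25B the 4 plants had 382, 161, 205 and 2.96 CPM at rhizobial shares of 7.02%, 16.0%, 48.0% and 66.6%. In DZA with strain 748B they had 83.6, 401, 2.91 and 140 CPM at shares of 36.4%, 16.7%, 81.1% and 55.4%. In both of these groups the plant with the lowest NCR169 was the plant with the highest share, and its value lay far below those of the other 3 plants. This did not hold in every group. In DZA with strain 141 the lowest value, 32.0 CPM in plant 3387, came with the lowest share (13.4%). With strain 31 in A17, where the shares lay between 11.9% and 26.7%, the 4 plants had 136, 257, 189 and 255 CPM. Its slope was -0.96 ± 0.08 (SE) log2 units per unit of logit share (adjusted p = 9.1e-23 by edgeR), -0.89 in DZA alone and -0.93 in A17 alone. The difference between hosts did not pass (-0.20 ± 0.18, adjusted p = 0.34), nor did the differences among strains in either host.

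The members closest to the score of group A were Chr7g0239561, Chr7g0244121 and Chr7g0215841, each with a correlation of 0.99 and with no gene name in the sources used here. Chr7g0244121 ran from 0.641 to 746 CPM with a median of 143 CPM. Its slope was -1.06 ± 0.07 (adjusted p = 8.4e-29 by edgeR). Chr7g0239561 ran from 2.03 to 398 CPM with a median of 63.5 CPM. Among the members of group A with the largest spread, Chr4g0016361 was listed at 0 in 50 libraries and reached 179 CPM, and its slope was -0.89 ± 0.26 (adjusted p = 0.0015). Chr5g0408991 was listed at 0 in 40 libraries and reached 215 CPM, with a slope of -0.55 ± 0.22 (adjusted p = 0.021). The steepest falling slopes were those of Chr0c01g0489011 (-3.30 ± 0.48), Chr7g0221961 (-2.13 ± 0.35) and Chr4g0015801 (-1.50 ± 0.12), and the steepest rising slopes those of Chr3g0090781, Chr6g0467021 (3.27 ± 0.53) and Chr3g0090751. Members with many zeros thus stood at both ends.

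Known symbiosis genes outside the list of members were compared with the scores in the same way. Of the 84 genes in that list, which the study took from earlier work, 62 passed the floor, and their median correlation with the score of group A on TMM-scaled values was 0.57, compared with 0.47 for all rows. With the score of group B it was 0.21, compared with 0.18. Of the 84 genes, 61 fell and 9 rose with the rhizobial share, where 36.9% and 38.9% of all rows tested did. Of the rows passing the floor, as 62 of the 84 genes did, 72.1% fell and 9.95% rose. With DESeq2 size factors 40 of the 84 fell and 17 rose, where 7744 and 20082 of 37672 rows did. The correlations with group A ran down to -0.48 (a TRICOT-like gene). The genes named next are among the closest but not all of them. SYT1 (0.896) and VAMP721d (0.895), for example, ranked above DMI2 and are not described further. On TMM-scaled values, DMI3, the calcium- and calmodulin-dependent kinase of symbiotic signalling, had a correlation of 0.91 with the score of group A and a slope of -0.66 ± 0.04. The receptor-like kinase DMI2 had 0.88 and -0.47 ± 0.04. NAD1, a gene that restrains defence in nodules, had 0.87 and -0.70 ± 0.05. SymCRK, a receptor-like kinase with a similar role, had 0.87 and -0.63 ± 0.05. VTL8, an iron transporter also called SEN1, had 0.87 and -0.62 ± 0.05. All of these slopes passed the test, the largest of their adjusted p-values by edgeR being 1.7e-22 (VTL8). The genes were chosen for naming after their correlations were seen, and they share libraries and scale with the members.

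Some genes of the list had a high correlation with the score of group B, given here on TMM-scaled values. The highest was that of Chr1g0168631 (0.86), which has no gene name in the list. Chr6g0468841 (0.74) and Chr2g0301621 (0.71), also without a name, ranked above RbohG and LATD below. These rows are not described further. The phytoglobin gene Phytogb1.1 (Chr4g0034301), whose product removes nitric oxide, had a correlation of 0.81 with the score of group B. In DZA with strain 216 its 4 plants had 2.81, 12, 171 and 61.0 CPM, while their scores of group B were -3.21, -0.89, 2.67 and 1.44, in the same order. Over all plants it ran from 1.28 to 171 CPM in DZA and from 0.776 to 74.6 CPM in A17. RbohG, an NADPH oxidase gene, had a correlation of 0.70, LATD, a nitrate transporter gene needed for nodule meristems, 0.70, and the phosphate transporter gene PT5 0.63, although PT5 was closer to group A (0.73). DMI1, which encodes a nuclear ion channel of symbiotic signalling, had -0.51, but 0.04 on CPM. The slope of Phytogb1.1 on the rhizobial share was -0.39 ± 0.08 (adjusted p = 1.6e-05 by edgeR), and that of DMI1 was -0.03 ± 0.06 (adjusted p = 0.63). These genes too were chosen after their values were seen.

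Functional lists gave a further description, although the study drew them from modules built on these same samples. Of 62 such lists, 3 are given, chosen after their values were seen and including the highest and the lowest for group A. On TMM-scaled values, the 13 measured genes of translational initiation had a median correlation of 0.83 with the score of group A, the 8 of oxygen carrier activity, which are leghaemoglobin-like, 0.78, and the 5 of the U2AF splicing complex -0.66, compared with 0.47 for all rows. For group B these were 0.29, 0.24 and -0.24, compared with 0.18. None of these genes was a member.

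Group B held the member with the largest spread among rows above 0 in every library, Chr3g0113641. It ran from 0.332 to 880 CPM in DZA with a median of 105 CPM, and from 0.441 to 575 CPM in A17 with a median of 15.7 CPM. In DZA with strain 278 the 4 plants had 809, 5.74, 213 and 2.15 CPM. In A17 with strain 282 they had 0.940, 0.441, 6.34 and 379 CPM, so that a single plant, 3438, carried nearly all of the signal. With strain 204 in A17 they had 13.1, 4.97, 6.80 and 6.50 CPM, within a narrow range. Its slope on the rhizobial share was -0.83 ± 0.19 (adjusted p = 5.1e-05 by edgeR), and it was higher in DZA by 1.17 ± 0.34 log2 units (adjusted p = 0.0017). Chr6g0464581, next in group B by spread, ran from 0.128 to 633 CPM and was higher in DZA by 1.36 ± 0.37 (adjusted p = 0.00091), while its slope of -0.45 ± 0.22 did not pass (adjusted p = 0.054). Besides Chr3g0113641, the members closest to the score of group B were Chr4g0014641 (correlation 0.98, slope -0.90 ± 0.19) and Chr3g0109031 (0.97, slope -0.67 ± 0.19), both of which fell with the share. Chr2g0321171 reached 160 CPM and was listed at 0 in 2 libraries.

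Some members lay side by side in the numbering of the genome annotation. All 6 rows passing the floor from Chr4g0014561 to Chr4g0014691 were members and all were in group B, with Chr4g0014591 (0 to 550 CPM) and Chr4g0014641 (0 to 321 CPM) among them. From Chr4g0015521 to Chr4g0016681, 9 of 20 rows passing the floor (45%) were members, where 1.63% of all rows were. In the study's lists, 10 rows of that stretch carry names of plastid-type proteins (ribosomal, polymerase, ATP synthase or cytochrome subunits). Of the 9 members there, only Chr4g0015971 (30S ribosomal protein S3) carries a name in those lists, so the members are not known to be plastid-type genes. Both stretches were chosen after the members were seen. In all, 9 pairs of members had consecutive numbers, and both genes of each pair were in the same group. Chromosome 4 held the most members (38 of 2112 rows, 1.8%), and the shares on chromosomes 1 to 8 ran from 0.771% (chromosome 1) to 2.43% (chromosome 6).

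A few members were near 0 in some plants and high in others. Chr0c01g0489011, the member with the largest spread, was over 10 CPM in 82 libraries (38 of DZA and 44 of A17), with a lowest value of 89.5, a median of 1156 and a highest value of 3571 CPM, and was at most 0.057 CPM in the other 78, being listed at 0 in 77. Plants of both kinds occurred in 39 of the 40 groups. In DZA with strain 216 the 4 plants had 0, 0, 1780 and 3570 CPM. The median rhizobial share was 17.2% in the plants over 10 CPM and 42.2% in the others. The row most opposed to it was the plastid row CPg0492381 (correlation -0.88), with a median of 50.4 CPM where Chr0c01g0489011 was over 10 CPM and 4772 CPM where it was not. Abundant nuclear rows were opposed almost as strongly. Chr5g0422041 (-0.877) had medians of 12880 and 54910 CPM in the same order, and Chr4g0016141 (-0.871) had 8776 and 22710 CPM. The counts are estimates that divide reads among similar rows, and sequence likeness between these rows was not examined, so the level of each row alone is uncertain.

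Chr3g0090781, the member with the second-largest spread and in neither group, was over 10 CPM in 38 plants, with a lowest value of 16.1, a median of 567 and a highest value of 1769 CPM, and at most 6.02 CPM in the others, with a median of 0.516 CPM. The 38 plants were 21 of DZA, spread over 15 strains, and 17 of A17, spread over 13 strains. There were 18 groups with 1 such plant, 10 groups with 2, 12 with none and none with 3 or 4. In DZA with strain 144B the 4 plants had 0.403, 1390, 1.49 and 894 CPM, and in DZA with strain 335 they had 0.439, 0.135, 0.360 and 0.0910 CPM. Its slope was 3.41 ± 0.45 log2 units per unit of logit share (adjusted p = 1.7e-11 by edgeR), and the median rhizobial share was 46.6% in the plants over 10 CPM and 24.4% in the others. The rows that ordered the plants most like it were Chr4g0067181 (correlation 0.88) and Chr5g0441611 (0.84). Their mean levels of 2.99 and 3.65 CPM were under the floor of 5, so neither could be a member. Its neighbours in the numbering, Chr3g0090751 and Chr3g0090811, were members as well and rose with the share by 2.17 ± 0.43 and 1.28 ± 0.16, although their correlations with Chr3g0090781 were only -0.16 and 0.37.

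**Figure D5:**
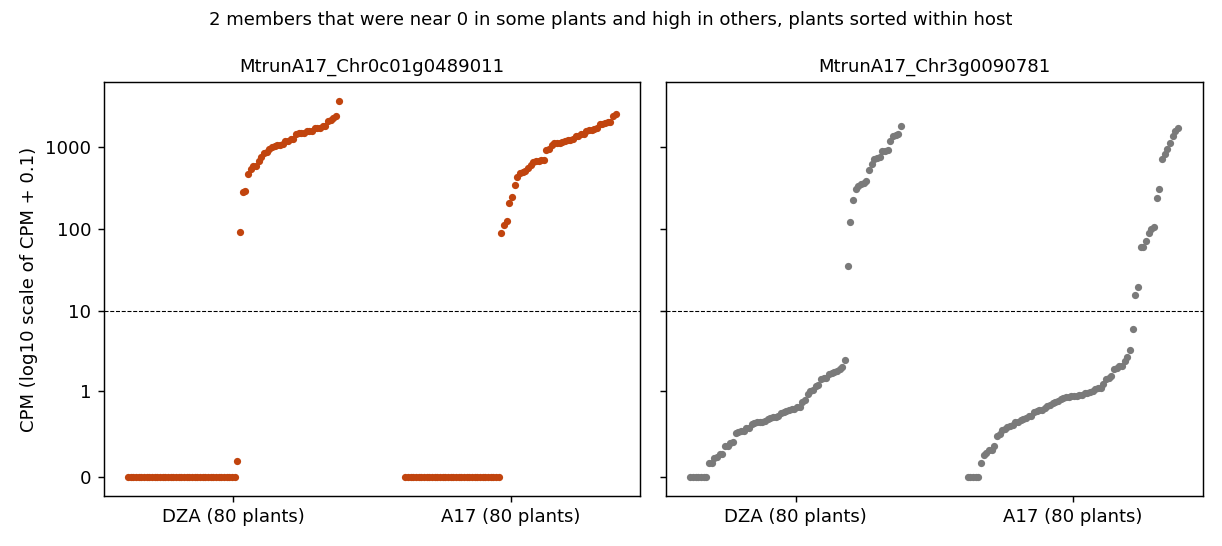
CPM of Chr0c01g0489011 (left) and Chr3g0090781 (right) in the 80 plants of DZA and the 80 of A17, sorted by value within each host, on a logarithmic axis of CPM + 0.1 with a dashed line at 10 CPM. Chr0c01g0489011 is over the line in 82 plants and Chr3g0090781 in 38, with few values near the line.

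Members with many zeros included rows named for plastid ribosomal proteins. Chr4g0024461, named 50S ribosomal protein L2 and in group A, was listed at 0 in 48 libraries and reached 29.0 CPM, and its median SD was 1.96. The plastid row of the same name, CPg0492531, was listed at 0 in 13 libraries and had a median SD of 1.11, and the sum of both rows had 1.24, below the 1.61 at the end of the list. Chr4g0015971, named 30S ribosomal protein S3, was listed at 0 in 102 libraries and reached 98.4 CPM. Chr6g0467021 was listed at 0 in 116 libraries and reached 56.9 CPM, and Chr7g0221961 was listed at 0 in 85 and reached 84.5 CPM. The values of such rows are uncertain. Apart from the sum for L2, their likeness to other rows was not examined, and whether divided reads enter their values was not tested.

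A cluster of 4 members moved apart from groups A and B. Chr3g0092111, Chr2g0329511, Chr8g0353801 and Chr7g0276421 lie on different chromosomes and had pairwise correlations from 0.86 to 0.94. Chr7g0276421 ran from 1.74 to 340 CPM in DZA with a median of 14.3 CPM, and from 0.586 to 344 CPM in A17 with a median of 20.3 CPM. In DZA with strain 748B its 4 plants had 340, 114, 6.52 and 64.6 CPM, with strain 282 they had 136, 231, 11.4 and 1.74 CPM, and with strain 278 8.56, 8.65, 7.12 and 4.82 CPM. None of the 4 passed the test of the slope on the rhizobial share, Chr8g0353801 being the nearest (-0.40 ± 0.20, adjusted p = 0.065 by edgeR).

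Few members differed among strains beyond the spread between plants. In DZA, 5 of the 200 members (2.5%) passed edgeR's quasi-likelihood test for any difference among the 20 strains, where 7.1% of 34224 rows did. They were Chr5g0421771 (adjusted p = 0.00051) of group A, Chr8g0343011 (0.007) of group B, and 3 of the cluster of 4, Chr7g0276421 (0.0023), Chr8g0353801 (0.0042) and Chr2g0329511 (0.007). The mean of Chr7g0276421 in DZA ran from 7.29 CPM (strain 278) to 131 CPM (strain 748B). In A17, 1 member (0.5%) passed, Chr3g0090781 (adjusted p = 7.5e-05), where 2.01% of 34843 rows did. The rule takes genes with a large spread within strains, against which strains are tested, so nothing is read from these shares. With limma-voom no member passed in either host, where 3.51% of all rows passed in DZA and 0.258% in A17. By edgeR, 13 members in DZA and 2 in A17 had an unadjusted p under 0.05, where 5328 of 34224 and 1918 of 34843 rows did. When the logit share was added as a covariate, 50 members passed in DZA (45 of group A and none of group B), where 8.56% of all rows did, and none passed in A17.

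Between the hosts, the calls in group A were mostly lower in DZA and those in group B mostly higher. In the test of DZA against A17 across strains, 102 of the 200 members (51%) passed, where 58.5% of 37672 rows did, 30.9% being higher in DZA and 27.6% lower. In group A, 49 of 120 members were lower in DZA and 12 higher, with a median difference of -0.25 log2 units. With the logit share as a covariate these were 48 and 26 with a median of -0.12, and without replicate 4 they were 36 and 16 with a median of -0.07. In group B, 36 of 67 members were higher in DZA and 2 lower, with a median of 0.66. The median difference of all rows was 0.09. These counts ranged from 36 to 59 (group A, lower) and from 30 to 42 (group B, higher) over the alternatives run. In group A the largest difference was that of Chr6g0475531, which ran from 3.61 to 382 CPM in DZA with a median of 56.4 CPM and from 38.6 to 4850 CPM in A17 with a median of 2450 CPM, lower in DZA with a log2 difference of -4.74 ± 0.19 (adjusted p = 5.2e-54 by edgeR). In group B it was Chr2g0300051, which ran from 31.0 to 2550 CPM in DZA with a median of 525 CPM and from 0 to 421 CPM in A17 with a median of 6.18 CPM, higher in DZA by 5.06 ± 0.37 (adjusted p = 1e-26). Reads of both hosts were counted on the A17 sequence, so a sequence difference of DZA and a difference in transcript level cannot be told apart.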

How the data were processed

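Nodule RNA of 160 plants was sequenced as stranded, paired-end libraries. Per the labels, the authors used bcl2fastq 2.20, Salmon 1.4.0 and R 4.1.0, and they deposited estimated counts (expected counts) per gene on the M. truncatula A17 and S. meliloti references, without normalization. Estimated counts were rounded for the tests. CPM was computed per 1000000 M. truncatula counts. Samples were grouped by host and strain from their titles, and no per-sample column was left unused. The members and the gene lists were chosen with earlier results of these data known.

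Deviations of log2(CPM + 1) from the host and strain mean were clustered by average linkage on 1 minus Pearson's r at r = 0.5, and clusters of 5 or more members were described. Rows with 10 counts in at least 4 libraries were tested with edgeR 4.0.16 (glmQLFit and glmQLFTest, the method of its version 4, TMM) in R 4.3.3. The models were host-strain group plus logit rhizobial share, its interaction with host, strain plus host, and strain within each host. An adjusted p under 0.05 was called. A fold or slope is per unit of the natural logit. limma 3.58.1 (voom) and DESeq2 1.42.0 served as alternatives. On simulated counts over 4689 rows, 92.5% of slopes of 1.5-fold per SD of the logit share were recovered, with 21 of 4498 unchanged rows called. The simulated host difference (4676 rows) recovered 83.6% at 1.5-fold. In the simulated strain difference in DZA (4469 rows), 2.99% were recovered at 1.5-fold, 35.8% at 2-fold and 86.4% at 4-fold. The simulated rows all had the same dispersion, and apart from the changed rows the libraries had the same composition. The data differ in both respects and the members were chosen for a large spread, so these rates do not apply to the members.

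The genes named were the 10 members with the largest spread, the leading members of each group by spread and by correlation, symbiosis list members, the rows next to the end of the list, and the largest slopes. Other genes are marked as chosen after their values were seen, or named because few passed a test. Gene names came from the study's lists. Product names for the other rows, promoter sequences and keyword lists for pathways and cell types were not analysed here, because the reference table used other identifiers.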

Additional observations from a re-analysis of the deposited data

Results flagged for a closer look

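With 4 plants a group, a plant was set apart where its gap to the nearest other plant was a larger part of the group's range than Dixon's 95% critical value allows. Among the scores of groups A and B and the level of NCR169 in 40 groups each, 2 plants met this, and chance gives about 1 in 20 groups. In A17 with strain 204, plant 3168 had a score of group A of -2.70 (gap 0.846 of the range), and its rhizobial share was 59.9%, where the others had 11.8% to 19.5%. In A17 with strain 748B, plant 3471 had a score of group B of 2.73 (gap 0.929 of the range), where the others had -0.997, -0.999 and -0.733.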

How the results depend on the processing

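No paired analysis was possible because the plant numbers in the labels are unique to each plant. The rule returned 123 of the 200 members with TMM-scaled CPM, 122 with a pseudocount of 5 and 120 with DZA alone, and 137 to 199 under its other alternatives (144 to 154 when a replicate was left out). In the 7 alternatives of the clustering, 182 to 190 members lay in groups of 5 or more.

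Of the 14 alternatives of the slope, the count of members called stayed between 145 and 196 (148 to 171 when a replicate was left out), and that of group A members falling between 116 and 120 (117 to 120). Of all rows tested, 63.5% (DZA alone) to 82.5% (scaling by library size) were called in these alternatives. The count of group B members falling was 50 in the main test, but 30 with DESeq2 size factors, 27 with the filter at a mean CPM of 5, 30 with the share computed without its 3 most abundant S. meliloti rows, 19 in DZA alone, and 23 to 45 when a replicate was left out. Of all rows tested, 13888 of 37672 fell in the main test, 7744 of 37672 with DESeq2 size factors and 4665 of 12484 with that filter. With the share computed without the 3 rows 13519 of 37672 fell, and in DZA alone 9824 of 34224. The cause of the changes in group B was not tested. NCR169 and Chr3g0113641 kept their negative slope, called, in every alternative.

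The host difference called 91 to 123 members (92 to 105 without a replicate). Of all rows tested, 49.1% (no filter) to 64.8% (filter at a mean CPM of 5) were called, so nothing is read from the members' counts. For NCR169, not called, the host difference of -0.20 ranged from -0.42 (without replicate 1) to 0.0024 (without replicate 4). In DZA, 0 members differed among strains with limma-voom and 50 with the logit share as a covariate, against 5 in the main test, and 2 to 6 when a replicate was left out. In A17 the count was 0 with limma-voom and 0 with the covariate, against 1, and 1 to 2 when a replicate was left out. Over the alternatives of the strain test, 3.51% to 10.2% of all rows passed in DZA and 0.258% to 2.53% in A17. With the trended dispersion and edgeR's older quasi-likelihood method, added after the data were seen, the rows called for strain in DZA fell from 2429 to 1437, and the members stayed at 5.

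Plant 3110 had 2282942 plant counts, so low rows rest on few reads there.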
